A study of Danio rerio with 8 samples.

Results

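The genes described here encode the subunits of oxidative phosphorylation (OXPHOS), the respiratory chain and ATP synthase of the mitochondrial inner membrane. They were defined by symbol, as zebrafish genes starting with ndufa, ndufb, ndufc, ndufs, ndufv, sdh, uqcr, atp5 or cox4 to cox8, with assembly factors left out. This set was chosen with earlier results of these data known. Of 97 such symbols in the RefSeq gene table, 75 had a probe on the array, among 23400 genes tested, and all 75 were well above background on all 8 arrays. Of the 23400, 12142 had a gene symbol. The others were array identifiers without a match, each counted as a gene, so shares over all genes rest on this mixed set. They comprised 34 genes of complex I, 5 of complex II, 6 of complex III, 13 of complex IV and 17 of complex V. The genes uqcrfs1 and cox4i1, and the subunits encoded in mitochondrial DNA, had no matched probe and were not analysed here.

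Complexes I and II pass electrons from NADH and succinate to ubiquinone, complex III passes them on to cytochrome c, and complex IV passes them to oxygen. Complexes I, III and IV pump protons as they do so, and complex V, the ATP synthase, uses the return of those protons to make ATP. Muscle, heart and neurons are known for a high demand on this system, and several complex IV subunits exist in tissue-specific isoforms.

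Total RNA came from whole zebrafish larvae of the WIK background at 4 days post fertilization, in 8 pools of 10 larvae. There were 4 control pools, called wild type in the labels, and 4 pools of LIS1 morphants, in which LIS1, a regulator of the microtubule motor dynein, was transiently knocked down by a morpholino. Both groups came from the same batches of eggs, and the morphants had been picked for a mild phenotype and for seizures, so they stand for the selected larvae and not for all those injected. The labels do not say whether controls were injected. In whole larvae, fewer cells of a type and less RNA per cell cannot be told apart.

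Each pool was hybridised to its own 1-colour array, and each of 4 slides carried a control and a morphant array of the same replicate number. Between 83.8% and 88.8% of spots were well above background and 0 were saturated. Levels below are log2 processed signals minus the array's 75th percentile, changes are morphant minus control, and adjusted p-values come from limma with Benjamini-Hochberg adjustment over all 23400 genes at a threshold of 0.05. The 75th percentile itself was 1237 ± 178 in controls and 1598 ± 154 in morphants, and the spike-in probes read 2101 ± 267 and 1627 ± 129 (SD, n = 4; two-sided exact permutation p = 0.0571 for each). Scaling to the spike-in probes in place of the percentile therefore moved the median change of all genes by 0.738, and directions below are relative to the percentile.

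The comparison asked which OXPHOS subunit genes differed between LIS1 morphants and controls. A few differed clearly, in both directions, while most did not pass the test. The largest falls were those of ndufs8b (3.56-fold) in complex I and atp5pf (3.03-fold) in complex V, and the largest rise was that of ndufs8a (1.93-fold), the paralog of ndufs8b. Of the 75 genes, 4 rose, 15 fell and 56 were not called, so 25.3% were called, where the background over all genes was 38.3%. The share that rose was 4 of 75 against a background of 16.4%, and the share that fell was 15 of 75 against 21.9%. The groups did not overlap for 27 of 75 genes (36.0%), against 38.1% of all genes. Only 2 of the 75 (2.67%) were both called and changed at least 2-fold, against 16.3% of all genes.

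Small differences below 0 were common among the members. The change was below 0 for 55 of 75 genes (73.3%), against 54.2% of all genes, and the median change was -0.19, against -0.06 over all genes. Taken slide by slide the median was also negative, at -0.22, -0.21, -0.16 and -0.16, where all genes had -0.07, -0.03, -0.03 and -0.12. With arrays scaled to the spike-in probes the members' median was 0.55 and that of all genes 0.68, so the sign of both turned. The members' median was 0.131 lower than that of all genes, a gap that such scaling cannot alter because it adds the same amount to every gene. It did alter with other processing and with single arrays, as the gap was -0.0739 with quantile normalization, -0.0582 in the deposited values, -0.0422 without control pool 1 and -0.218 without morphant pool 1. The median size of a change, regardless of sign, was 0.239 for the members and 0.411 for all genes, with median standard errors of 0.134 and 0.177. The members were bright genes, with a median level of 4.33 (morphant pool 2) to 4.89 (control pool 1) above the 75th percentile. Shares called, sizes, standard errors and the gap therefore set them against genes that were mostly dimmer. No set matched for brightness was tested. With quantile normalization the median of each complex was still negative but smaller in size than as reported. Of the 56 genes that were not called, 54 had a 95% interval that excluded a 2-fold change, the exceptions being ndufa12 and sdhda.

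**Figure D1:**
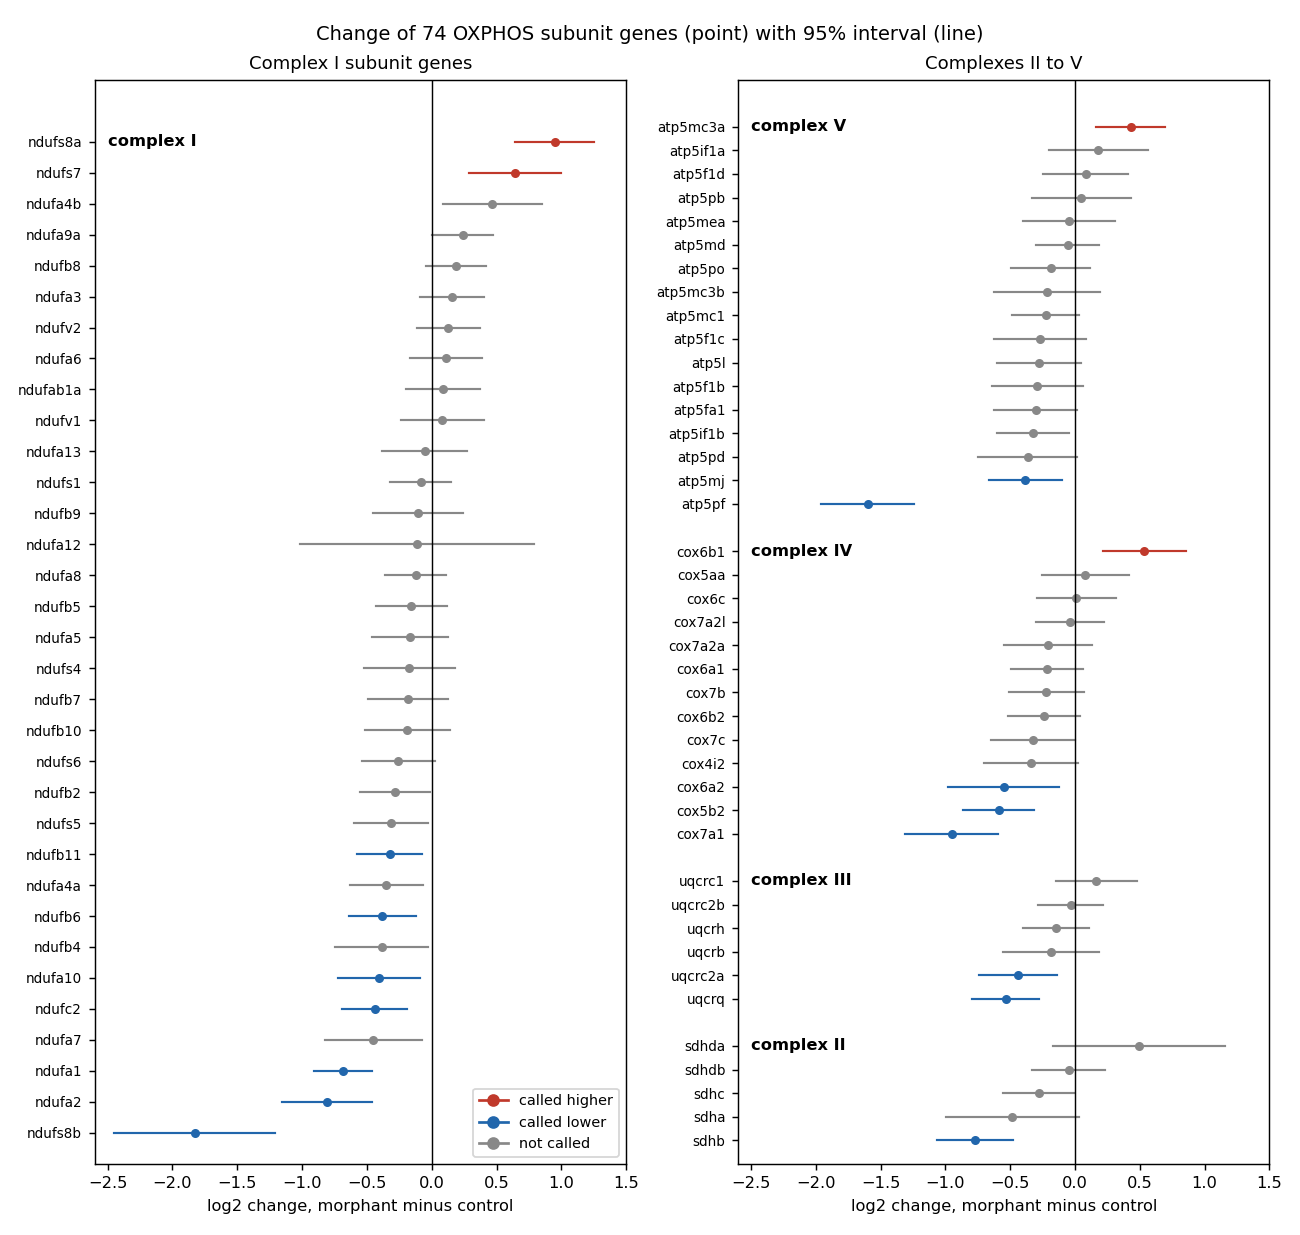
Change of 74 of the OXPHOS subunit genes (x axis, log2, morphant minus control, relative to the 75th percentile), as a point with its 95% interval, by complex and ordered by change. Called genes are coloured: 4 lie to the right and 15 to the left of 0, and with spike-in scaling all points would shift to the right by 0.738.

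Complex I had 34 measured genes, of which 2 rose and 7 fell, with a median change of -0.16 (0.577 with spike-in scaling). The share called was 26.5%, against 38.3% of all genes. Its core subunits, conserved from bacteria and carrying the flavin and iron-sulfur clusters of the arm that reaches into the matrix, and its accessory subunits, which surround them, were read separately. Of 7 core genes 2 rose and 1 fell (42.9% called), with a median of 0.09. Of 27 accessory genes 0 rose and 6 fell (22.2% called), with a median of -0.18. Over all genes 16.4% rose and 21.9% fell, so the share of accessory genes that fell was near the background. The accessory genes include ndufa4a and ndufa4b, kept here by their symbol.

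Among the core genes, ndufs8a and ndufs8b encode copies of the same subunit, a carrier of iron-sulfur clusters next to the ubiquinone site. The level of ndufs8a was 2.32, 2.14, 2.16 and 1.93 in control pools 1 to 4 and 3.17, 2.83, 3.22 and 3.13 in morphant pools 1 to 4. Every morphant pool was above every control pool, and the rise was 0.95 (SE 0.13, adjusted p = 0.00103). For ndufs8b the levels were -1.02, -1.63, -1.25 and -2.01 in controls and -3.08, -3.32, -2.92 and -3.91 in morphants. Here every morphant pool was below every control pool, and the change was -1.83 (SE 0.27, adjusted p = 0.00136). A second probe of ndufs8b differed by -1.97. With spike-in scaling ndufs8b was still called lower, at -1.09.

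The core gene ndufs7, whose product holds the last iron-sulfur cluster before ubiquinone, was the other member of complex I that rose. It read 2.06, 1.53, 1.93 and 1.51 in controls and 2.43, 2.55, 2.28 and 2.32 in morphants, without overlap, a rise of 0.64 (SE 0.16, adjusted p = 0.0123). The remaining core genes were not called. The gene for the largest core subunit, ndufs1, differed by -0.09 (95% interval -0.32 to 0.15). For ndufv1, which encodes the subunit that binds NADH, the brightest probe differed by 0.08, while a dimmer probe was called higher at 0.60 (adjusted p = 0.00515 over all probes). The dimmest probe of ndufv1 differed by 0.57 and was not called (adjusted p = 0.0591 over all probes).

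Among the accessory genes, ndufa2 and ndufa1 had the largest falls. The levels of ndufa2 were 5.63, 5.44, 5.28 and 5.31 in controls and 4.93, 4.57, 4.60 and 4.34 in morphants. The groups did not overlap, and the fall was by 0.81 (SE 0.15, adjusted p = 0.00387), but a second probe of the gene differed by only -0.23 and was not called (adjusted p = 0.245). The levels of ndufa1, a small membrane subunit, were 0.23, 0.05, 0.18 and 0.22 in controls and -0.45, -0.56, -0.49 and -0.55 in morphants. Its groups were apart by several times their spread, with a change of -0.68 (SE 0.10, adjusted p = 0.00118) and -1.44 on the second probe. With spike-in scaling ndufa1 turned to 0.06 and ndufa2 moved to -0.07, neither called. The other called accessory genes, singled out after their values were seen, were ndufc2 (-0.44), ndufa10 (-0.41), ndufb6 (-0.38) and ndufb11 (-0.32), with adjusted p-values of 0.0142, 0.0458, 0.0286 and 0.0471. Their groups did not overlap either, but the last 3 of them were called in 1, 2 and 0 of the 8 fits that left out an array, with adjusted p up to 0.110, and all 4 were above 0 with spike-in scaling. Accessory genes that were not called lay between -0.45 and 0.47.

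**Figure D2:**
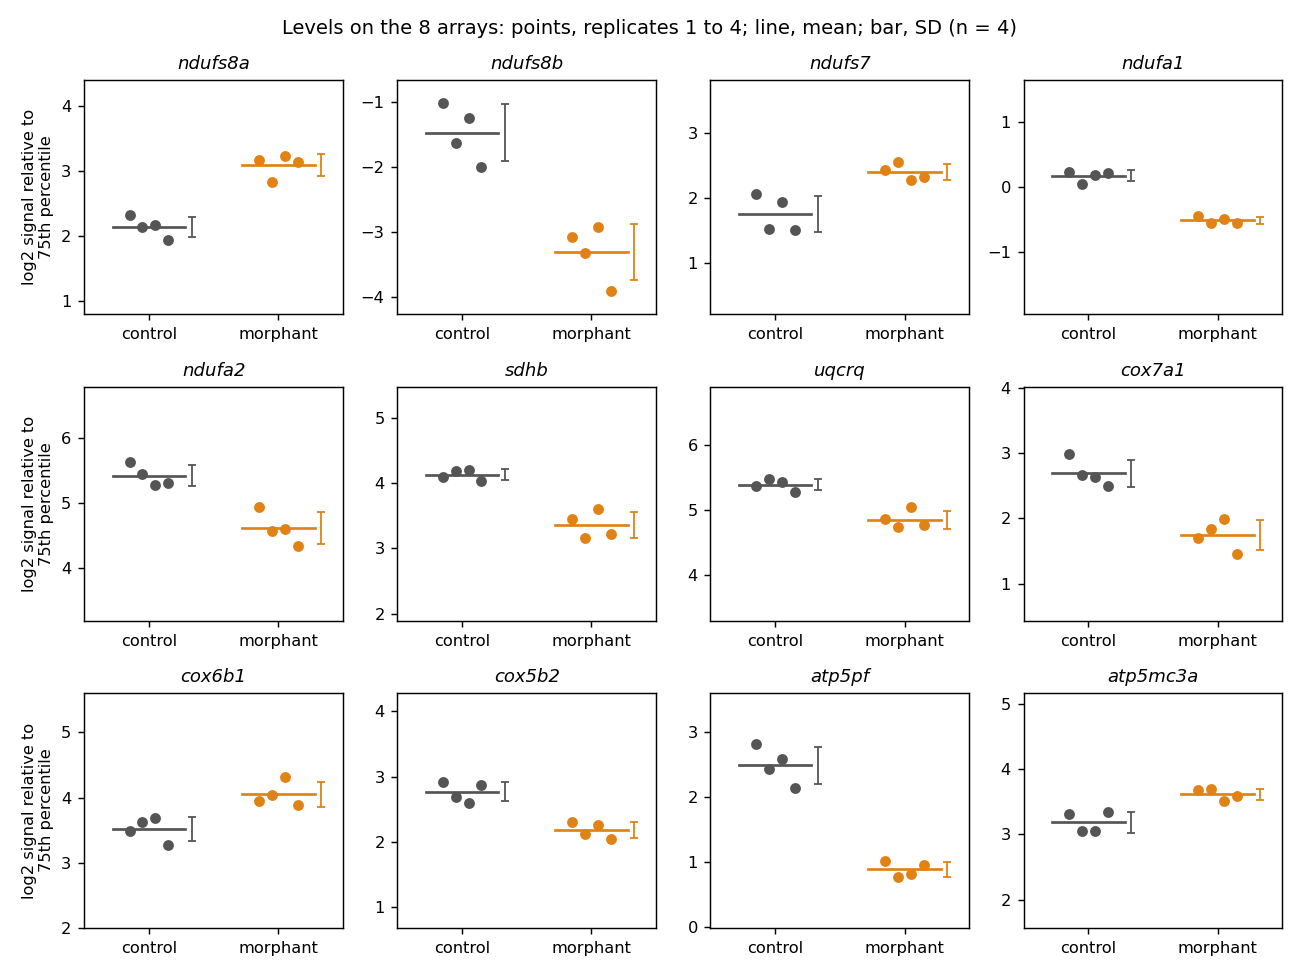
Levels of 12 called OXPHOS subunit genes (y axis, log2 signal relative to the array's 75th percentile) in the 4 control and 4 morphant pools, each point an array, in the order of replicates 1 to 4, with the mean as a line and the SD as a bar. All 12 panels span the same height, and in each the 4 morphant points lie wholly above or wholly below the 4 control points.

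In complex II, which is also the succinate dehydrogenase of the citric acid cycle, 0 of 5 genes rose and 1 fell, with a median change of -0.28 (0.457 with spike-in scaling). The share called was 20%, against 38.3% of all genes. The gene that fell was sdhb, which encodes the iron-sulfur subunit. Its levels were 4.09, 4.19, 4.21 and 4.04 in controls and 3.45, 3.16, 3.60 and 3.22 in morphants. Every control pool was above every morphant pool, and the change was -0.77 (SE 0.13, adjusted p = 0.00227). Its second probe did not follow, with a difference of 0.03 (adjusted p = 0.892 over all probes), and with spike-in scaling the first probe differed by -0.04.

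The catalytic flavoprotein of complex II is encoded by sdha, whose 3 probes disagreed. The brightest read 2.97, 3.25, 3.45 and 2.89 in controls and 2.35, 2.61, 3.26 and 2.40 in morphants, overlapping because of morphant pool 3. Its difference was -0.48 (SE 0.22, adjusted p = 0.120), which was called with slides as a block (adjusted p = 0.0238). Another probe of sdha was called in the opposite direction, at 0.51 (adjusted p = 0.00902 over all probes), and the dimmest differed by 0.44. No direction can be given for the gene from these probes. The membrane anchor genes sdhc and sdhdb differed by -0.28 and -0.05, and sdhda by 0.49 with a wide 95% interval of -0.17 to 1.15.

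In complex III, 0 of 6 genes rose and 2 fell, with a median change of -0.17 (0.571 with spike-in scaling). The share called was 33.3%, against 38.3% of all genes. The fall was clearest for uqcrq, a small subunit, at 5.37, 5.48, 5.44 and 5.28 in controls and 4.86, 4.74, 5.05 and 4.78 in morphants. There was no overlap, and the change was -0.53 (SE 0.11, adjusted p = 0.0068), against 0.20 with spike-in scaling. The core protein gene uqcrc2a read 4.60, 4.52, 4.61 and 4.22 in controls and 4.16, 3.96, 4.18 and 3.89 in morphants. These groups came close without overlapping. The fall was by 0.44 (SE 0.13, adjusted p = 0.0295), was also seen on a second probe at -0.43, and turned to 0.30 with spike-in scaling. It was called in 3 of 8 fits that left out an array, with adjusted p up to 0.078. The other core protein gene, uqcrc1, differed by 0.16 on its brightest probe (95% interval -0.15 to 0.48) and was called higher on a dimmer one, at 0.77 (adjusted p = 0.0205 over all probes). A further probe of uqcrc1 differed by 0.29 and was not called (adjusted p = 0.0818 over all probes). With the mean of its probes uqcrc1 was called higher, at 0.41 (adjusted p = 0.0324).

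In complex IV, cytochrome c oxidase, 1 of 13 genes rose and 3 fell, with a median change of -0.22 (0.515 with spike-in scaling). The share called was 30.8%, against 38.3% of all genes. All 4 called genes belong to subunits with isoforms, but so do most of the 13 measured genes. In mammals cox7a1 and cox6a2 encode the isoforms of heart and skeletal muscle. The levels of cox7a1 were 2.99, 2.66, 2.64 and 2.50 in controls and 1.70, 1.84, 1.99 and 1.46 in morphants. Its groups did not overlap, with a change of -0.95 (SE 0.16, adjusted p = 0.0022), and it still differed by -0.21, no longer called, with spike-in scaling.

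The other muscle-type gene, cox6a2, read 2.48, 2.31, 2.40 and 1.83 in controls and 1.79, 1.87, 1.86 and 1.31 in morphants. Pool 4 was the lowest of each group, and control pool 4 made the groups overlap. The change was -0.55 (SE 0.19, adjusted p = 0.0478), a second probe gave -0.62, and spike-in scaling turned it to 0.19. It was called in 1 of 8 fits that left out an array, with adjusted p up to 0.112. Skeletal muscle markers, which bear on these isoforms, had a median change of -0.19, with 1 of 18 higher (myl1) and 0 lower. That is 5.56% called, against 38.3% of all genes. Their summed level was 10.9 to 11.3 in controls and 10.8 to 11.1 in morphants, with no marker at background. Heart markers had a median of 0.38, with 2 of 8 higher (myl4 and nppa) and 0 lower (25% called). Their summed levels were 3.43 to 3.74 in controls and 3.64 to 3.96 in morphants. The part of either tissue in the isoform changes was not tested.

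The gene cox5b2 encodes a form of the subunit that binds zinc on the matrix side. It read 2.91, 2.69, 2.60 and 2.87 in controls and 2.30, 2.12, 2.26 and 2.04 in morphants. The change was -0.59 (SE 0.12, adjusted p = 0.00584), without overlap, and its other 2 probes gave -1.04 and -0.59, both called, although spike-in scaling turned the first to 0.15. Of the other genes of complex IV that fell, cox6a2 was called lower on both its probes (adjusted p = 0.0478 and 0.0283 over all probes), and cox7a1 had 1 probe.

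The only gene of complex IV that rose was cox6b1, whose product joins the monomers of the enzyme on the side of the intermembrane space. Levels of 3.49, 3.62, 3.68 and 3.28 in controls faced 3.95, 4.04, 4.32 and 3.89 in morphants. All morphant pools were above all control pools, and the rise was 0.53 (SE 0.14, adjusted p = 0.0175). Among the genes that were not called, which lay between -0.34 and 0.08, the gene cox5aa, for a subunit on the matrix side, differed by 0.08 (95% interval -0.26 to 0.41).

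In complex V, 1 of 17 genes rose and 2 fell, with a median change of -0.22 (0.513 with spike-in scaling). The share called was 17.6%, against 38.3% of all genes. By role, 0 of 4 genes of the catalytic F1 head, 1 of 4 of the peripheral stalk that holds the head still, and 1 of 3 genes for the rotating c ring were called. The stalk gene atp5pf, which encodes coupling factor 6 and had 1 probe, had the smallest adjusted p of all 75 members. It read 2.81, 2.43, 2.58 and 2.13 in controls and 1.01, 0.77, 0.82 and 0.95 in morphants. The groups lay far apart compared with their spread. The change was -1.60 (SE 0.16, adjusted p = 0.000192), and it remained called lower with spike-in scaling, at -0.86.

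The stalk genes beside it were not called: atp5po, atp5pb and atp5pd differed by -0.19, 0.05 and -0.36 (adjusted p = 0.296, 0.842 and 0.118). With slides as a block atp5pd was called lower (adjusted p = 0.031). A second probe of atp5pb was called higher, at 0.37 (adjusted p = 0.0477 over all probes). In the F1 head, atp5fa1 and atp5f1b, which encode the alpha and beta subunits that form the catalytic sites, differed by -0.30 and -0.29 (95% intervals -0.62 to 0.02 and -0.64 to 0.06). Neither was called. The small membrane subunit gene atp5mj fell by 0.38 (SE 0.12, adjusted p = 0.0384), from 3.66, 3.56, 3.51 and 3.48 to 3.35, 2.98, 3.31 and 3.04, and was at 0.35 with spike-in scaling; it was called in 2 of 8 fits that left out an array, with adjusted p up to 0.101. The inhibitor genes atp5if1a and atp5if1b, whose products hold back ATP hydrolysis, differed by 0.18 and -0.33 and were not called.

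The c ring is encoded by 3 of the measured genes, which specify the same mature protein in mammals. Of these atp5mc3a rose, from 3.31, 3.05, 3.05 and 3.34 in controls to 3.68, 3.69, 3.51 and 3.59 in morphants. The groups did not overlap, and the rise was 0.43 (SE 0.12, adjusted p = 0.0207). It was called in 4 of 8 fits that left out an array, with adjusted p up to 0.064. The other 2 genes, atp5mc1 and atp5mc3b, differed by -0.22 each and were not called.

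Zebrafish keep many subunit genes in duplicate, and isoform genes allow a comparison within each array that rescaling the array does not change. The log2 ratio of the members of 11 pairs was tested between the groups by two-sided exact permutation, with Benjamini-Hochberg adjustment over the 11. For 8 pairs the 4 control and 4 morphant ratios did not overlap (p = 0.0286, the smallest that 4 against 4 allows, adjusted p = 0.0393, exact permutation). The permutation ran over all 8 arrays and did not keep the arrays of a slide together. Ratios of other gene pairs were not counted, so whether 8 of 11 is unusual was not tested. Single genes whose control and morphant levels were fully apart already made up 38.1% of the 23400. The pairs of atp5mc3a with atp5mc1 and with atp5mc3b share a gene, so they are not separate results. The pairs were chosen with the calls above known, and they largely show the same changes within the array.

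The ratio of ndufs8a to ndufs8b moved most, from 3.61 ± 0.29 in controls to 6.39 ± 0.43 in morphants (SD, n = 4), a difference of 2.78. The next was ndufa4a over ndufa4b, which fell by 0.82, from 3.01 ± 0.13 to 2.19 ± 0.31. In mammals NDUFA4 is a subunit of complex IV despite its name. Neither ndufa4 gene was called alone on its brightest probe (-0.35 and 0.47, adjusted p = 0.0533 and 0.056), while another probe of each was called, at -0.49 for ndufa4a and 1.43 for ndufa4b (adjusted p = 0.0166 and 0.000726 over all probes).

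Among complex IV isoforms, cox6b1 gained on cox6b2 by 0.77, and cox7a1 lost 0.74 against cox7a2a. On the control arrays the cox7a1 ratio was nearly constant, at -3.18 ± 0.03, and it was -3.93 ± 0.28 in morphants (SD, n = 4). The muscle-type cox6a2 did not separate from cox6a1, since their changes differed by 0.33 (adjusted exact permutation p = 0.0943). In complex V atp5mc3a gained 0.65 on atp5mc1 and 0.64 on atp5mc3b, which kept their ratio to each other within the spread, with a difference of -0.01 (adjusted exact permutation p = 0.943). The core protein gene uqcrc2b differed by only -0.03 (95% interval -0.29 to 0.22). The pairs uqcrc2a with uqcrc2b (-0.41) and sdhda with sdhdb (0.54) also separated, and atp5if1a with atp5if1b (0.51, adjusted exact permutation p = 0.0698) did not. For sdhda over sdhdb the ratio was -5.60 ± 0.51 in controls and -5.06 ± 0.15 in morphants (SD, n = 4), so the control spread was nearly as large as the difference. Control pool 4 was low for sdhda, at -3.66 against -2.24, -2.45 and -2.46 in the other controls.

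Probes of the same gene did not always give the same answer. The 75 genes had 129 probes, and 38 genes had several. Each of the 4 genes that rose (ndufs8a, ndufs7, cox6b1 and atp5mc3a) had 1 probe, so no second probe could be compared. The same held for the falls of atp5pf, uqcrq, cox7a1, atp5mj, ndufc2, ndufa10, ndufb6 and ndufb11. The sign of the change was shared by all probes in 30 of the 38 and mixed in 8. By probe, 9 were called higher and 26 lower, so 27.1% were called against a background of 38.5%, and in 0 genes were different probes called in opposite directions. In 11 genes only a probe other than the brightest was called. Besides ndufv1, sdha and uqcrc1 these included ndufs6, an accessory subunit of complex I, at -0.83 on the dimmer probe and -0.26 on the brightest, and ndufa4b, at 1.43 and 0.47. Another was ndufa7, at -0.51 and -0.45, and those of the 11 not named in this text were also called lower. With the mean of a gene's probes 5 members gained a call, 2 higher and 3 lower. The genes ndufs6, ndufa4b and ndufa7 were singled out after their values were seen.

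Members also varied together between pools of the same group. The median deviation from the gene's group mean was 0.18 on the array of control pool 1 and 0.15 on that of morphant pool 1, which shared a slide, against -0.02 and -0.01 over all genes. On these 2 arrays 67 and 68 of 75 members were above their group mean, and 62 and 55 were the highest of their group. The other 6 arrays had median deviations between -0.10 and 0.03. Such counts were not made over all genes, so no background share stands beside them. The pattern was not particular to the members. On the slide that held control pool 1, many mitochondrial ribosomal protein genes also read highest of the controls. Without that slide, 2 members were called higher and 9 lower (14.7%, against 29.9% of all genes), and their median change was again -0.19. Each slide held 1 array of each group, and with slides as a block 5 members were called higher and 21 lower (34.7%, against 44.3% of all genes). Calls gained under the block were those of sdha, ndufa4b, ndufa7, ndufs5, cox7c, atp5if1b and atp5pd.

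**Figure D3:**
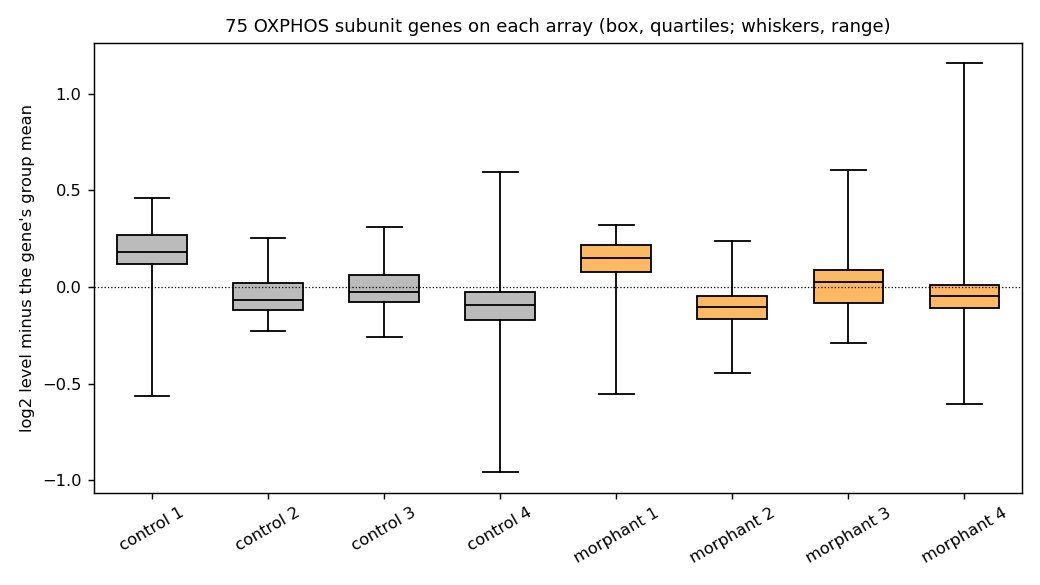
Deviation of the 75 OXPHOS subunit genes from their group mean (y axis, log2) on each of the 8 arrays (x axis), with boxes for the quartiles, lines for the medians and whiskers for the range. Control 1 and morphant 1, from the same slide, stand above the rest, with medians of 0.18 and 0.15.

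Genes around the chain were counted for comparison, beside 38.3% called among all genes (16.4% higher and 21.9% lower). Of 2 cytochrome c genes, cyc1 (the cytochrome of complex III) and cycsb (the soluble carrier), 0 were called, with differences of 0.04 and -0.24. Of 33 assembly factors 7 rose and 4 fell (33.3% called), with a median change of 0.05. Those that rose included ndufaf7, a factor of complex I assembly (2.75, SE 0.44), and foxred1 (1.31, SE 0.21). Both were at low levels, with ndufaf7 at -3.76, -5.04, -3.78 and -2.67 in controls. Those that fell included cox20 (-1.16, SE 0.30), where control pool 4 (-0.27) was close to morphant pool 4 (-0.29). All 3 were singled out after their values were seen. Of 65 mitochondrial ribosomal protein genes 11 rose and 4 fell (23.1% called), with a median of 0.07. The members' median of -0.19 was below that of both lists. By construction, scaling to the array median or the spike-in probes leaves this order as it is, because either shifts all genes alike. Other processing can change the order and was not read for these lists, whose genes were mostly dimmer than the members. The bright skeletal muscle markers also had a median of -0.19.

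Fuel and transport genes showed single large changes. The share called was 23.5% for the citric acid cycle and pyruvate dehydrogenase and 35.7% for ATP export and cristae. It was 28.6% for biogenesis regulators and 33.3% for glycolysis, against 38.3% of all genes. Among 17 genes of the citric acid cycle and pyruvate dehydrogenase 1 rose and 3 fell, with a median of -0.01, and the largest fall was that of pdha1b, a subunit of pyruvate dehydrogenase, from -0.19, -0.25, -0.20 and -0.53 to -1.81, -2.0, -1.55 and -1.99 (change -1.54, SE 0.14, adjusted p = 0.000143). The much brighter paralog pdha1a differed by -0.20 and was not called (adjusted p = 0.146). Of 14 genes for ATP export and cristae 2 rose and 3 fell, with a median of -0.07. The fallen ones included slc25a4, an ADP/ATP carrier (-0.48, adjusted p = 0.00965), and slc25a3a, a phosphate carrier (-0.78, adjusted p = 0.0168). Their brighter paralogs slc25a5 and slc25a3b differed by -0.22 and -0.18 and were not called. Of 7 regulators of mitochondrial biogenesis, gabpa rose (0.36) and tfb1m fell (-0.43), with a median of 0.04. Of 30 glycolysis genes 7 rose and 3 fell, with a median of 0.13. The largest fall was that of pklr (-1.07) and the largest rise that of tpi1a (0.93). Smaller changes were those of ldha, which makes lactate and rose by 0.78, and gapdh, which fell by 0.73. Genes of these lists are named here after their values were seen.

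Markers of other cell types were read beside these counts. The share called was 36.4% for neuron, 25% for ionocyte and 57.1% for liver markers, against 38.3% of all genes. Neuron markers had 2 of 11 higher and 2 lower with a median of -0.10, and summed levels of 6.05 to 6.26 in controls and 6.01 to 6.30 in morphants. Ionocyte markers, for a cell type of the skin rich in mitochondria, had 1 of 8 higher and 1 lower with a median of 0.15, and summed levels of 5.52 to 5.73 and 5.42 to 5.76. Liver markers had 4 of 7 higher and 0 lower with a median of 0.95, while their summed level was 8.58 to 9.10 in controls and 8.27 to 8.75 in morphants. The liver markers that were not called were fabp10a (-1.24, adjusted p = 0.056), rbp4 (-0.32) and serpina1 (-0.07), the brightest of the list in controls. The summed levels of each of these lists overlapped between the groups, all their measured markers were well above background on all 8 arrays, and their part in the members' changes was not tested.

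The direction of the members as a whole depended on the reference within each array, as the plot of median changes under each way of processing shows. Of the 15 genes that fell, 15 stayed below 0 with median scaling, quantile normalization, normexp background correction and the deposited values, while 5 did so with spike-in scaling. Under that scaling 2 members, ndufs8b and atp5pf, were called lower, where the background was 4.55%, and 47 higher, where it was 54.0%. The 4 genes that rose were called with each of these except normexp followed by 75th percentile scaling, where 1 was.

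**Figure D4:**
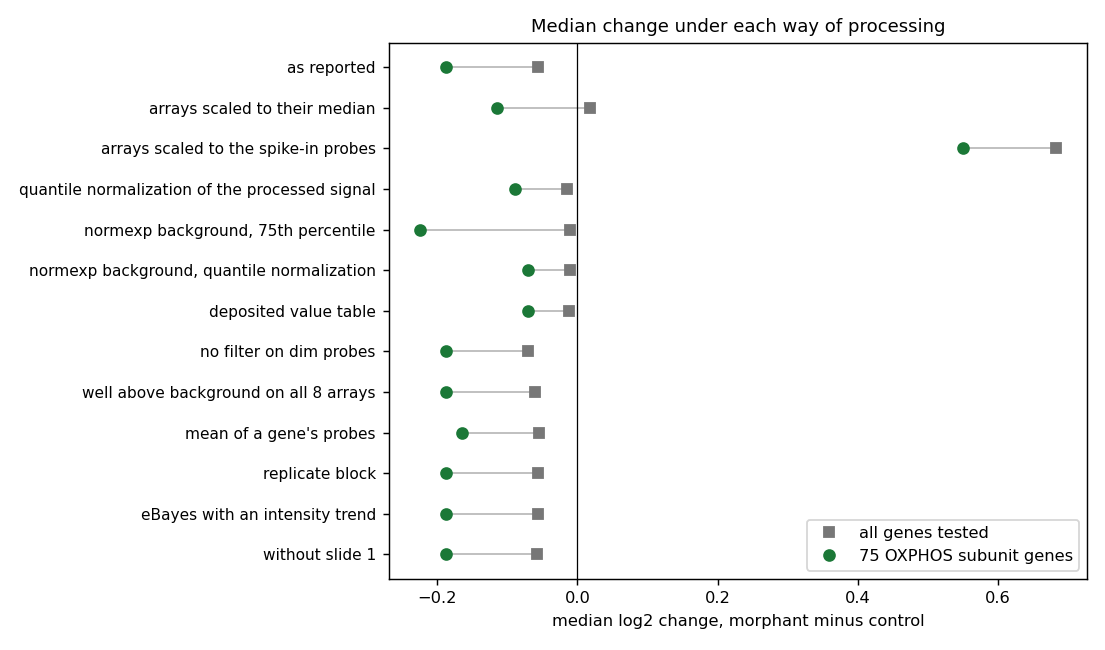
Median log2 change (x axis, morphant minus control) of the 75 OXPHOS subunit genes (circles) and of all genes tested (squares) under each way of processing (y axis). The circle lies to the left of the square in every row, and both turn positive when arrays are scaled to the spike-in probes, at 0.55 and 0.68.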

How the data were processed

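RNA of 8 pools was labelled with Cy3, per the labels, and hybridised to zebrafish arrays of Agilent design 026437 (genome build danRer6), per the file headers, although the labels' protocol names a mouse array. Scanner files were deposited with the intensity of each spot. The file headers name Feature Extraction 10.7.3.1, whose processed signal has background subtracted, and the arrays had not been scaled to each other. The authors' deposited value table holds log2 values; how the authors made them is not given in the sources used here, and they served as an alternative. Its columns for the samples titled replicates 2, 3 and 4 ranked probes like the scanner files of replicates 4, 2 and 3, in both groups, which leaves group membership untouched.

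Control spots and outlier flags were left out, and log2 processed signals were set relative to the 75th percentile of their array. Probes well above background on all 4 arrays of a group were kept (36707 of 43603). They were named by accession through a RefSeq gene table of GRCz12tu, used for names only, which matched 25069 probes to 12858 symbols. Probes without a match were kept under their array identifier, which counted as a gene. The brightest probe stood for a gene. The 23400 genes were fitted with limma 3.58.1 in R 4.3.3 (lmFit, eBayes), and 41 of them lacked a value on at least 1 array. Per-array measures and within-array ratios were compared by exact permutation tests. The fit was tested on simulated data. Alternatives changed scaling, background correction, probe filter, probe choice, the slide block, the intensity trend and the arrays included; leaving out slide 1 and the ratio tests were added after the data were seen. Depth on arrays is limited by their number, 4 per group.

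Replicate numbers pair the arrays: those of the same number shared a slide and scan, per the file headers, and their deviations from the group means correlated at 0.454, 0.159, 0.322 and 0.283. Between arrays of unlike number the correlation ran from -0.323 to 0.283. The highest of these, control 2 with morphant 3, was above that of control 2 with morphant 2. Within a group the correlation between arrays was 0.976 to 0.993, and no arrays were identical. Pools are separate samples per the labels.

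The members and gene lists were chosen with earlier results of these data known. Named members were core subunits, up to 3 per complex and direction with the largest called change and no overlap, and paralogs of called members. Some others are marked in the text as singled out after their values were seen. Further members are named without such a mark, such as sdhc, the other stalk and inhibitor genes of complex V, and pairs without a called member. A gene among the members is counted but not reported by itself here. No sequences or coordinates were used.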

Additional observations from a re-analysis of the deposited data

Results flagged for a closer look

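In 2 of 56 groups of 4 arrays tested among the named members, 1 pool stood far from the other 3, where chance gives about 1 in 20. For uqcrc1 it was control pool 1, at 3.40 against 3.09 to 3.14, on the slide on which most OXPHOS subunit genes read high. For cox6a2 it was morphant pool 4, at 1.31 against 1.79 to 1.87.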

How the results depend on the processing

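The count of genes that fell (15) was 9 with arrays scaled to their median, 2 with spike-in scaling, 8 with normexp followed by the 75th percentile and 9 without slide 1. The count that rose (4) was 47, 1 and 2 under the last 3 of these. Members called came to 25.3% against 38.3% of all genes as reported, 18.7% against 38.4% with median scaling, 65.3% against 58.5% with spike-in scaling and 12% against 11.5% with normexp and the percentile, so their share was not below that of all genes under the last 2. The members' median change (-0.187) was -0.114 with median scaling, 0.55 with spike-in scaling, -0.0888 with quantile normalization, -0.224 with normexp and the percentile, -0.0705 with normexp and quantiles and -0.0704 in the deposited values. The share of called members that were lower was 78.9% (57.1% for all genes), 64.3% (49.6%) with median scaling and 4.08% (7.77%) with spike-in scaling. Leaving out an array gave 9 to 14 genes that fell, 3 to 4 that rose and medians of -0.269 to -0.105. The count of falls was 9 without control 1, 2 or 3 or morphant 2 or 4, and 12 of 19 calls held in all 8 such fits. Among named members, spike-in scaling turned the sign of sdha (0.26), atp5fa1 (0.43), atp5f1b (0.45), ndufa1 (0.055), ndufs1 (0.65), uqcrc2a (0.30), uqcrc2b (0.70), uqcrq (0.20), cox5b2 (0.15), cox6a1 (0.52), cox6a2 (0.19), cox6b2 (0.50), cox7a2a (0.53), atp5mc1 (0.51), atp5mc3b (0.52) and atp5mj (0.35). By construction it adds the same shift to every gene. Single other probes turned sdha (0.51), sdhb (0.034), atp5f1b (0.33), atp5fa1 (0.06), ndufs1 (0.14) and cox5aa (-0.04), of which that of sdha was called; the cause was not tested. With the replicate block, which pairs arrays by slide, 5 genes rose and 21 fell and it changed no calls beyond the 7 it added, 1 higher (ndufa4b) and 6 lower. Of the 11 ratios, 1 changed its call: sdhda over sdhdb missed the threshold with the mean of a gene's probes (0.55, adjusted exact permutation p = 0.0698). With 4 arrays a group, the median standard error of a change was 0.134 for the members.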
